A study of Xenopus laevis x Xenopus muelleri with 8 samples.

Results

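The egg envelope genes zp2.L, zp4.S and zpd.L encode glycoproteins of the coat around the frog egg, and their transcripts were measured in ovaries of adult hybrid frogs. The genes were chosen by symbol. Each is the single gene symbol of 1 probe set in the platform annotation, which gives 3 of the 11485 probe sets deposited. Unless a smaller set is named, shares and ranks given for the array are over these 11485. No control probe set was among them, so they may not be all that the array carries. Probe sets with exactly 1 symbol numbered 6798 and covered 5790 genes. One further egg coat probe set, annotated with several symbols, was left out because its signal cannot be given to a single gene. The 2 groups were 4 sex-reversed ovaries and 4 normal ovaries, each sample on its own Affymetrix array. All 8 animals came from a Xenopus laevis mother (Cape of South Africa) and a Xenopus muelleri father (Swaziland) and were raised from eggs to adulthood under a 12L:12D photoperiod. The labels give neither the means of sex reversal nor the age of the animals.

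The egg envelope, called the vitelline envelope in frogs and the zona pellucida in mammals, is the fibrous coat that surrounds the growing oocyte and that sperm must bind and cross. It is built from secreted glycoproteins that share the zona pellucida domain, a folding module by which the proteins polymerise into filaments. In Xenopus the oocyte itself makes these proteins. They enter the endoplasmic reticulum, receive sugar chains, are trimmed by proteases and are deposited outside the cell. The genes are standard markers of oocytes, and their transcripts are abundant in the ovary.

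Several facts of the whole series bear on these genes. The source name of all 8 arrays says testis while the titles, descriptions and protocols say ovary, and that of sex-reversed replicate 4 also says normal. Of 13 probe sets of oocyte markers 12 lay above the median of all probe sets, and of 7 probe sets of testis markers 0 did. Array medians ran from 6.0 to 6.04 on the log2 scale. Clustered by their correlation, with the number of sets fixed at 2, the arrays split into sets of 4 that each held both groups. Set 1 held sex-reversed replicates 3 and 4 with normal replicates 1 and 4, and set 2 held sex-reversed replicates 1 and 2 with normal replicates 2 and 3. In whole ovary, fewer oocytes and less RNA per oocyte cannot be told apart. The array's probes were designed on X. laevis, so how well each measures the X. muelleri transcript is not known. With 4 arrays a group, precision is limited by their number.

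All 3 genes gave bright signals in every ovary, and no difference between sex-reversed and normal ovary larger than the spread between arrays was detected. The lowest of their values stood above 93.4% of the probe sets on its array, and the highest above 98.4%. The difference between group means farthest from 0 was −0.096 on the log2 scale, in zp2.L, and the 95% intervals kept every gene between 0.750-fold and 1.28-fold of normal. In limma, 0 of the 3 probe sets passed an adjusted p of 0.05, and 0 of 11485 did so over the array (0%). At an unadjusted p of 0.05 the count was again 0 of 3, against 733 of 11485 (6.38%). Groups overlapped in all 3 genes, and over the array they did not overlap in 466 probe sets (4.06%). For 3 probe sets, shares of this size would mostly give a count of 0, so these counts do not set the genes apart.

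Zp2.L (Entrez gene 398089) encodes the ZP2 glycoprotein, which in Xenopus takes part in sperm binding and is cleaved when the egg is fertilised. Its log2 expression was 10.64, 10.92, 10.84 and 11.08 in sex-reversed replicates 1 to 4, against 11.05, 10.87, 10.94 and 11.01 in normal replicates 1 to 4. Sex-reversed ovaries held both the lowest and the highest value, so the normal range lay wholly inside the sex-reversed one. The mean level was 10.87 ± 0.18 (SD, n = 4) in sex-reversed ovary and 10.97 ± 0.080 (SD, n = 4) in normal ovary. The log2 difference was −0.096 ± 0.14 (SE), or 0.936-fold, with a 95% interval from −0.41 to 0.22 (adjusted p = 0.922 in limma). The two-sided exact permutation test over 70 assignments of arrays gave p = 0.429, where 0.0286 is the smallest possible. Without sex-reversed replicate 1, the lowest array, the difference was −0.019 ± 0.14 (SE), and without sex-reversed replicate 4 it was −0.17 ± 0.14 (SE). With sex-reversed replicate 4 counted as normal, as its source name reads, it was −0.19 ± 0.13 (SE, adjusted p = 0.807 in limma).

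Zp4.S (Entrez gene 394364) encodes an egg envelope glycoprotein of the ZP4 (ZPB) class. It measured 10.01, 10.21, 10.08 and 9.98 in sex-reversed replicates 1 to 4, against 10.22, 10.29, 9.74 and 10.01 in normal replicates 1 to 4. Normal ovaries gave both extremes here, with normal replicate 3 the lowest of all 8 and normal replicate 2 the highest. The mean level was 10.07 ± 0.10 (SD, n = 4) in sex-reversed and 10.07 ± 0.24 (SD, n = 4) in normal ovary. The log2 difference was 0.0043 ± 0.16 (SE), with a 95% interval from −0.35 to 0.36 (adjusted p = 0.998 in limma; two-sided exact permutation p = 0.971). Without normal replicate 3 it was −0.10 ± 0.14 (SE), and without normal replicate 2 it was 0.078 ± 0.17 (SE), so its sign changes with single arrays.

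Zpd.L (Entrez gene 397832) encodes ZPD, an egg envelope glycoprotein of a class known from frogs and birds. Its values were 10.20, 10.35, 10.17 and 10.50 in sex-reversed replicates 1 to 4, against 10.25, 10.29, 10.51 and 10.19 in normal replicates 1 to 4. Each group had 1 array near 10.5, sex-reversed replicate 4 and normal replicate 3, and the other arrays lay lower and mixed. The mean level was 10.31 ± 0.15 (SD, n = 4) in sex-reversed and 10.31 ± 0.14 (SD, n = 4) in normal ovary. The log2 difference was −0.0031 ± 0.14 (SE), with a 95% interval from −0.32 to 0.32 (adjusted p = 0.998 in limma; two-sided exact permutation p = 0.971). Without normal replicate 3 it was 0.063 ± 0.14 (SE), and without sex-reversed replicate 4 it was −0.069 ± 0.15 (SE).

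**Figure D1:**
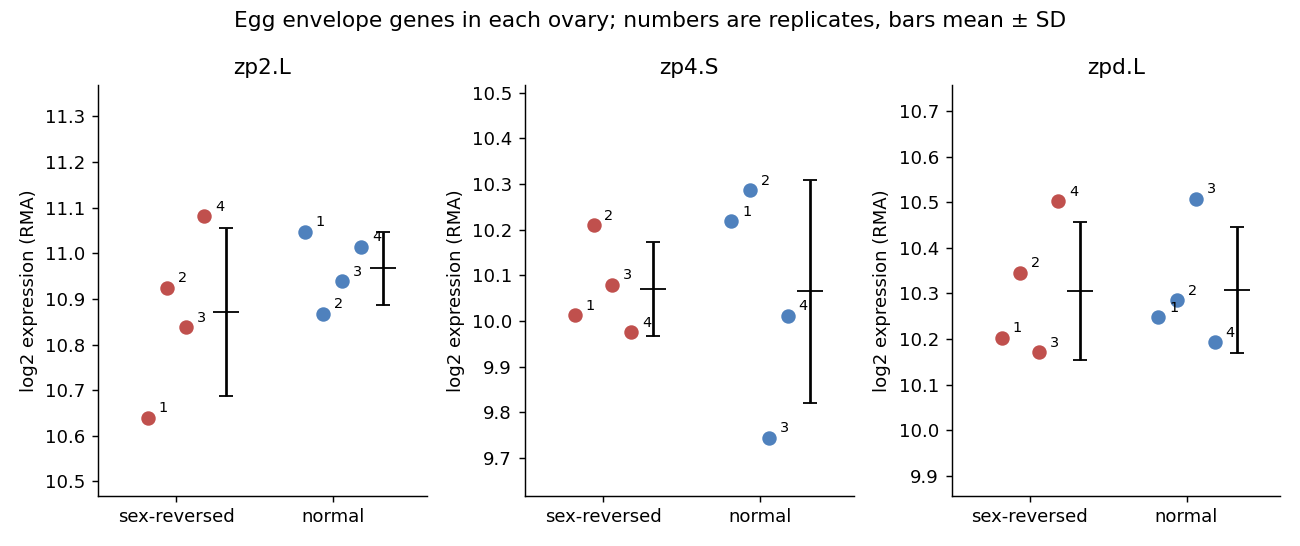
Log2 expression of zp2.L, zp4.S and zpd.L in each array, with sex-reversed ovaries left of normal ovaries, replicate numbers beside the points and bars for the mean ± SD (n = 4). Each panel spans the same height on the log2 scale. The groups overlap in all 3 genes, zp2.L is spread most widely in sex-reversed ovary (SD 0.18 against 0.080) and zp4.S in normal ovary (SD 0.10 against 0.24).

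These intervals were narrower than those of most probe sets. The median half-width of the 95% interval over the array was 0.48 log2. An interval lying wholly within a 1.5-fold change either way was reached by all 3 genes, against 4234 of 11485 probe sets (36.9%). That share covers probe sets of every level. Bright probe sets varied less, and no share was taken among those as bright as these genes. The size of the observed difference exceeded that of 30.0% of probe sets for zp2.L, 1.53% for zp4.S and 1.00% for zpd.L.

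Each gene kept a similar rank on every array. Zp2.L ranked between 181 and 292 from the top in the 8 ovaries, above 97.5% to 98.4% of probe sets. Zpd.L ranked between 344 and 505, above 95.6% to 97.0%, and zp4.S between 440 and 756, above 93.4% to 96.2%. Probe sets differ in how strongly they bind their targets, so these ranks describe signal and not the order of transcript numbers among the 3 genes. Leaving out any 1 array kept the rank of the mean between 98.1% and 98.2% for zp2.L, 96.3% and 96.6% for zpd.L and 95.4% and 95.8% for zp4.S.

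Spread over the 8 ovaries was small. The SD of log2 expression over all arrays was 0.14 for zp2.L, 0.17 for zp4.S and 0.13 for zpd.L, against a median of 0.31 over all probe sets. The highest and lowest ovary differed by 1.36-fold in zp2.L, 1.46-fold in zp4.S and 1.26-fold in zpd.L. A smaller SD was found in 5.45% of probe sets for zp2.L, in 12.0% for zp4.S and in 4.54% for zpd.L. These shares moved with single arrays, from 1.12% without sex-reversed replicate 1 to 9.46% without normal replicate 3 for zp2.L, from 4.22% without normal replicate 3 to 16.2% without sex-reversed replicate 1 for zp4.S, and from 3.31% without sex-reversed replicate 4 to 7.39% without normal replicate 2 for zpd.L. Bright probe sets varied less: the 1000 probe sets nearest to each gene in mean level had median SDs of 0.20 for zp2.L and 0.21 for zp4.S and zpd.L. Among these, 17.6% had a smaller SD than zp2.L, 29.0% than zp4.S and 14.1% than zpd.L.

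Other oocyte transcripts were in part more variable between the same ovaries. The largest SD of the 3 egg envelope genes was that of zp4.S. Of the 13 oocyte marker probe sets, 3 (23.1%) had an SD at or below it, against 1375 of 11485 on the array (12.0%). These were probe sets of grip2.L, a germ plasm gene, with an SD of 0.12, and of nanos1.L, a translational repressor of germ cells, and ccnb2.L, a B-type cyclin, with 0.15 each. The other 10 ran up to 1.80 in ccnb2.S. The median SD of the 13 was 0.31, the same as over all probe sets, but both shares and medians over the array cover every level. The list was bright, with a median level of 10.3. The 1000 probe sets nearest in level to zp4.S or zpd.L had a median SD of 0.21, and 29.0% of those nearest zp4.S had a smaller SD than it. Whether the list was more variable than probe sets of like brightness was not tested. Zar1.S, a maternal factor gene, had an SD of 0.74 and npm2.S, an oocyte histone chaperone gene, 0.54. In ccnb2.S the spread came from normal replicates 1 and 4, at 8.17 and 8.09, against 11.65 to 12.26 on the other 6 arrays. On those 2 normal arrays zp2.L stood at 11.05 and 11.01, zp4.S at 10.22 and 10.01 and zpd.L at 10.25 and 10.19. Both values of zp2.L were above its mean over 8 arrays and both of zpd.L below. No test was made of whether the egg envelope genes vary less than the other oocyte genes.

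**Figure D2:**
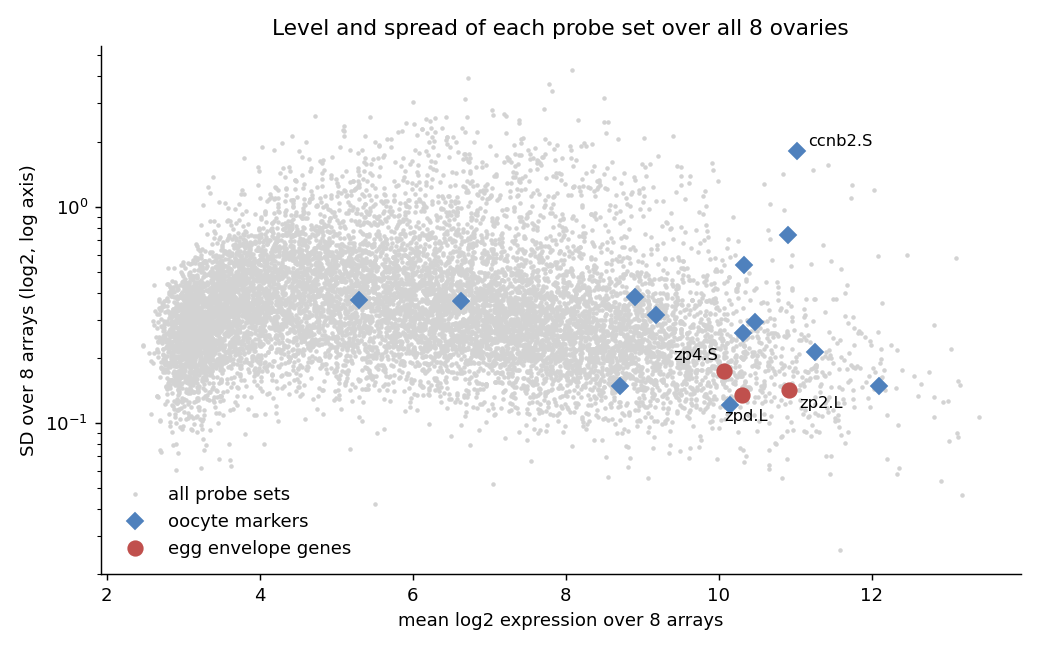
Mean log2 expression over the 8 arrays (horizontal) against the SD over the same arrays (vertical, log axis) for all 11485 probe sets in grey, 13 oocyte marker probe sets as diamonds and the 3 egg envelope genes as circles. The egg envelope genes lie at mean levels of 10.07 to 10.92 with SDs of 0.13 to 0.17, while ccnb2.S lies at an SD of 1.80.

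The 3 genes deviated in different directions on most arrays. Set against its own mean over 8 arrays, each gene was below it in sex-reversed replicate 1, by −0.28 in zp2.L, −0.054 in zp4.S and −0.10 in zpd.L. Each was above it in sex-reversed replicate 2, by 0.0056 in zp2.L, 0.14 in zp4.S and 0.038 in zpd.L. On the other 6 arrays the signs were mixed. The signs of 3 unrelated genes would also be mixed on most arrays, so this count does not set the genes apart. Normal replicate 3 showed the widest parting, with zp4.S at −0.32 and zpd.L at 0.20 from their own means while zp2.L was at 0.019. Sex-reversed replicate 4 showed the same pattern in smaller size for zp4.S, at −0.092, beside 0.20 in zpd.L and 0.16 in zp2.L. Averaged over the 3 genes, the deviation was −0.016 ± 0.11 (SD, n = 4) in sex-reversed and 0.016 ± 0.053 (SD, n = 4) in normal ovary. With 4 arrays in each group, these averages are equal and opposite by construction. The summed signal of the 3 probe sets on the linear scale ran from 3807 to 4624 in sex-reversed ovaries and from 4271 to 4524 in normal ovaries. Because the clustering divided the arrays into 2 sets of 4, a correlation between these genes over all 8 ovaries was not tested.

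**Figure D3:**
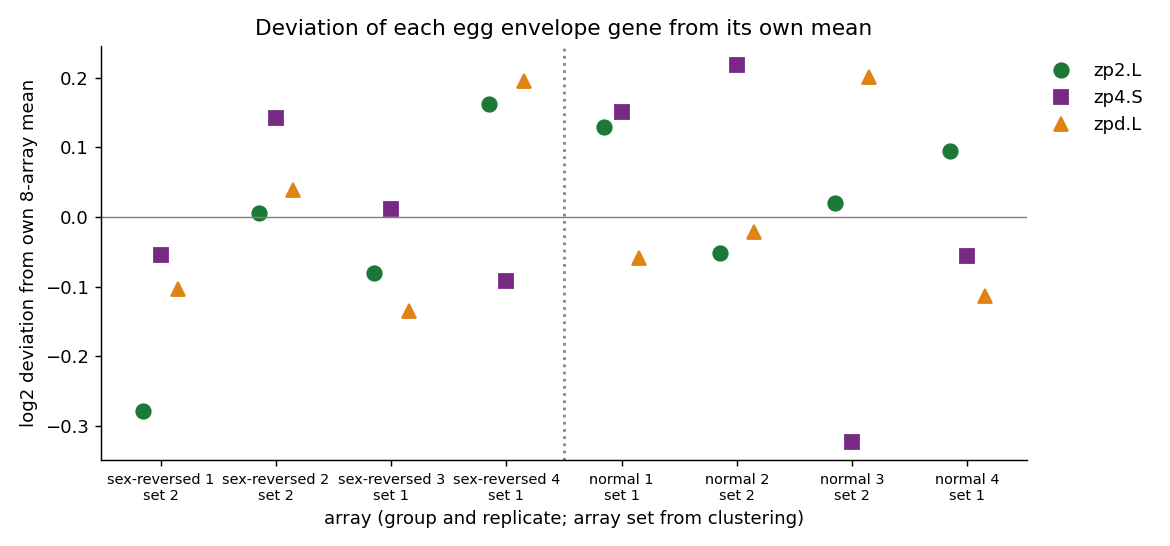
Deviation of zp2.L (circles), zp4.S (squares) and zpd.L (triangles) from each gene's own mean over 8 arrays, in log2, with the sex-reversed arrays left of the dotted line and the array set under each name. All 3 genes lie below 0 only in sex-reversed replicate 1 and above 0 only in sex-reversed replicate 2, and zp4.S and zpd.L part most in normal replicate 3 (−0.32 and 0.20).

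Within the array sets no gene showed a difference beyond its error. In set 1, zp2.L averaged 10.96 in sex-reversed and 11.03 in normal ovary, a difference of −0.071 ± 0.21 (log2, SE). In set 2 it averaged 10.78 in sex-reversed and 10.90 in normal ovary, a difference of −0.12 ± 0.22 (SE). For zp4.S the differences were −0.088 ± 0.21 (SE) in set 1 and 0.096 ± 0.27 (SE) in set 2, and for zpd.L 0.12 ± 0.22 (SE) and −0.12 ± 0.21 (SE). Each rests on 2 arrays against 2, and the adjusted p values in limma lay between 0.931 and 0.974. Between the sets, with both groups pooled, zp2.L averaged 10.995 ± 0.11 (SD, n = 4) in set 1 and 10.84 ± 0.14 (SD, n = 4) in set 2. The corresponding levels were 10.07 ± 0.11 and 10.06 ± 0.24 for zp4.S, and 10.28 ± 0.15 and 10.34 ± 0.13 for zpd.L. The sets were found from these same arrays, so the difference between them was not tested.

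The genes whose pattern over arrays was most like each egg envelope gene were sought among 3941 other named probe sets of at least median brightness. Likeness was Pearson's r over 8 arrays after each group's mean was removed. Zp2.L was most like habp4.S (r = 0.98), ireb2.L, an iron regulatory protein gene (0.97), and atp5po.S, an ATP synthase subunit gene (0.97). Zp4.S was most like wls.L, a carrier of secreted Wnt proteins, tmem259.S and u2af2.S, a splicing factor gene (r = 0.96 each). Zpd.L was most like tead4.S, a transcription factor gene (r = 0.97), ldha.S, a lactate dehydrogenase gene (0.96), and acod1lb.L (0.96). An r above 0.9 was found for 15 of the 3941 probe sets with zp2.L, 27 with zp4.S and 16 with zpd.L. The genes named are the highest of 3941, a search that can yield a high r over 8 arrays without any link. How many would lie above 0.9 by chance was not tested. Between the egg envelope genes themselves r was 0.47 for zp2.L with zpd.L, −0.016 for zp2.L with zp4.S and −0.50 for zp4.S with zpd.L. These values describe 8 arrays that share normalisation and array sets, and none of the 3 genes was among the closest of another.

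Genes that process the egg coat and its precursors were set beside the egg envelope genes. Of 20 zona pellucida domain and egg coat genes listed, the 3 described here were the ones measured under a single symbol. In the list of egg coat processing and cortical granule genes, with 12 probe sets, 0 passed in either direction, with 1 higher and 1 lower in sex-reversed ovary at an unadjusted p of 0.05 (16.7%, against 6.38% of all probe sets) and a median log2 difference of −0.11, against 0.0037 over the array. The pair was tpst2.L, a Golgi tyrosylprotein sulfotransferase gene, with a mean of 9.68 in sex-reversed and 7.82 in normal ovary (log2 difference 1.86 ± 0.40, SE), and cpe.L, a carboxypeptidase gene, with 3.22 and 3.72 (−0.50 ± 0.17, SE), whose other probe set gave −0.42 ± 0.33 (SE). Neither passed the adjusted threshold (adjusted p = 0.636 for tpst2.L and 0.733 for cpe.L in limma). Tpst2.L stood at 9.19 in normal replicate 3 and at 7.34 to 7.38 in the other normal ovaries. Sex-reversed ovaries ran from 9.59 to 9.80. Leaving out 1 array gave tpst2.L differences from 1.70 (without normal replicate 1) to 2.31 (without normal replicate 3). Furin.L, a protease that in mouse trims zona pellucida precursors, differed by 0.12 ± 0.29, 0.28 ± 0.30 and −0.22 ± 0.40 (SE) on its 3 probe sets. Its homeolog furin.S differed by 0.58 ± 0.33 (SE).

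The next lists covered the secretory route. In the list of N-glycosylation and glycoprotein folding, with 39 probe sets of 28 genes, 0 passed in either direction, 21 lay above 0 and 18 below, and the median log2 difference was 0.044. At an unadjusted p of 0.05 there were 2 (5.13%, against 6.38% of all probe sets). These were calr.L, a chaperone gene that binds glycoproteins, at 0.53 ± 0.16 (SE), and prkcsh.S, a glucosidase subunit gene, at 0.71 ± 0.28 (SE). Their homeologs calr.S and prkcsh.L differed by −0.18 ± 0.23 (SE) and 0.063 ± 0.16 (SE). Prkcsh.S was dim, at a mean level of 4.05, against 8.97 for prkcsh.L. The brightest were rpn1.L, of the oligosaccharyltransferase, at −0.30 ± 0.17 (SE), and alg8.S, of sugar chain assembly, at −0.018 ± 0.17 (SE). In the list of endoplasmic reticulum translocation and signal peptide removal, with 26 probe sets, 0 passed and 0 reached an unadjusted p of 0.05, with a median of −0.030. Here the translocon genes sec61b.L and sec63.L differed by −0.31 ± 0.14 (SE) and −0.35 ± 0.16 (SE), and ssr2.S, of the translocon-associated complex, by −0.017 ± 0.16 (SE).

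No probe set of the oocyte lists passed in limma either. Oocyte transcription and maternal factors had 11 of 21 probe sets above 0 and 10 below, with 0 passing and a median of 0.020. At an unadjusted p of 0.05 there was 1 (4.76%, against 6.38% of all probe sets). That probe set was dppa2.L, at −0.50 ± 0.14 (SE). Gtf3a.L, the TFIIIA gene of oocyte 5S RNA transcription, differed by −0.13 ± 0.17 (SE), and by −0.025 without normal replicate 2. Zar1.S differed by −0.39 ± 0.46 (SE), and by −0.10 without sex-reversed replicate 1. Npm3.S, a gene of the nucleoplasmin family, differed by 1.58 ± 0.74 (SE) on one probe set, by 0.77 ± 0.36 (SE) there without normal replicate 2, and by 0.45 ± 0.24 (SE) on its other probe set. Oocyte mRNA storage and translation had 9 of 15 below 0, with 0 passing and a median of −0.036. Here 1 reached an unadjusted p of 0.05 (6.67%, against 6.38%). That 1 was stau1.L, an RNA transport gene, at −0.85 ± 0.15 (SE). Igf2bp3.S differed by −0.26 ± 0.17 (SE) and ddx4.L, the germ cell helicase gene, by −0.18 ± 0.19 (SE), or −0.0067 without normal replicate 3. Oocyte markers had 8 of 13 above 0, with 0 passing and a median of 0.022. Here too 1 reached an unadjusted p of 0.05 (7.69%, against 6.38%). That 1 was ccnb2.S at 2.12 ± 0.89 (SE), and the others named were zar2.S at 0.43 ± 0.21 (SE) and ccnb2.L at 0.022 ± 0.15 (SE).

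Markers of the other cells of the ovary gave 0 passing probe sets in each list in limma. The summed linear signal of the 13 oocyte marker probe sets ran from 16342 to 22292 in sex-reversed and from 15470 to 20778 in normal ovaries. Follicle cell and granulosa markers, with 9 probe sets, ran from 656 to 1884 in sex-reversed and from 430 to 2119 in normal ovaries, with a median difference of 0.0073 and 0 at an unadjusted p of 0.05. Among them gja1.L, a gap junction gene, differed by 0.32 ± 0.14 (SE) and 0.67 ± 0.47 (SE) on its 2 probe sets, and cyp17a1.L, a steroid synthesis gene, by 0.058 ± 1.31 (SE) and 0.0073 ± 0.64 (SE). The first of the gja1.L probe sets was dim, at a mean level of 2.94. A linear sum weighs bright probe sets most. The brighter cyp17a1.L probe set ran from 5.23 in sex-reversed replicate 3 to 10.42 in normal replicate 2 (log2), so the sum need not follow the other follicle cell markers. Likewise the oocyte sums were 17709 and 15470 in normal replicates 1 and 4, where ccnb2.S stood at 8.17 and 8.09 (log2). On the other arrays ccnb2.S ran from 11.65 to 12.26. Stroma, vessel and mesothelium markers ran from 804 to 1338 in sex-reversed and from 1083 to 1516 in normal ovaries. Of these 14 probe sets 11 lay below 0, with a median of −0.33, and at an unadjusted p of 0.05 there were 6 lower and 1 higher (50.0%, against 6.38%), among them col3a1.S, a collagen gene, at −1.44 ± 0.48 (SE), krt7.L, an epithelial keratin gene, at −1.08 ± 0.24 (SE) and pecam1.L, an endothelial gene, at −0.38 ± 0.14 (SE). Another col3a1.S probe set gave −0.076 ± 0.40 (SE). Krt7.L was dim, at a mean level of 3.89. The higher one, named after its value was seen, was pdgfra.L, a growth factor receptor gene, at 0.70 ± 0.27 (SE), with −0.12 ± 0.25 (SE) on its other probe set. Also named after their values were seen, cldn5.L differed by −0.54 ± 0.23 (SE) and its homeolog cldn5.S by 0.35 ± 0.17 (SE). Myh11.S differed by 0.47 ± 0.26 (SE). The brightest of the list, and so the one that weighs most in its sum, was acta2.L of smooth muscle actin, at −0.080 ± 0.27 (SE). The part of these cells in the values of the egg envelope genes was not tested.

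The remaining marker lists were the dimmest, with median levels of 3.97 for blood and leukocyte, 3.32 for liver and yolk precursor and 3.80 for testis markers. The follicle cell and stroma lists, at 4.88 and 5.55, also lay below the median of all probe sets, 6.02. Blood and leukocyte markers, with 12 probe sets, ran from 472 to 629 in sex-reversed and from 545 to 1074 in normal ovaries, with a median difference of −0.036. At an unadjusted p of 0.05 there were 2 (16.7%, against 6.38% of all probe sets). They were cd247.S at 0.64 ± 0.21 (SE) and lcp1.S at −0.45 ± 0.16 (SE). The brightest were hbg2.L at −0.40 ± 0.18 (SE) and cd74.L at −0.61 ± 0.50 (SE). Without normal replicate 3 cd74.L differed by −0.098 ± 0.31 (SE), and that array also gave the highest sum, the other normal ovaries running from 545 to 677. Liver secreted and yolk precursor markers, with 17 probe sets, had 0 above the median level of all probe sets and a median difference of 0.036. At an unadjusted p of 0.05 there was 1 (5.88%, against 6.38%), ambp.L at 1.21 ± 0.35 (SE). Other probe sets of ambp.L gave −0.17 ± 0.42 (SE) and −0.20 ± 0.21 (SE), and rbp4.L gave 0.56 ± 0.26 (SE). The sum of the liver and yolk precursor list ran from 281 to 358 in sex-reversed and from 260 to 280.5 in normal ovaries. Testis markers, with 7 probe sets, ran from 107 to 122 in sex-reversed and from 91.2 to 146 in normal ovaries, with a median of −0.15. Of these, 1 reached an unadjusted p of 0.05 (14.3%, against 6.38%), lhx9.L, an early gonad factor gene, at 0.96 ± 0.17 (SE). Sox9.S was at −0.71 ± 0.33 (SE). No list's count at an unadjusted p of 0.05 was tested against the share of 6.38%. Detection above background was not tested for any list.

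**Figure D4:**
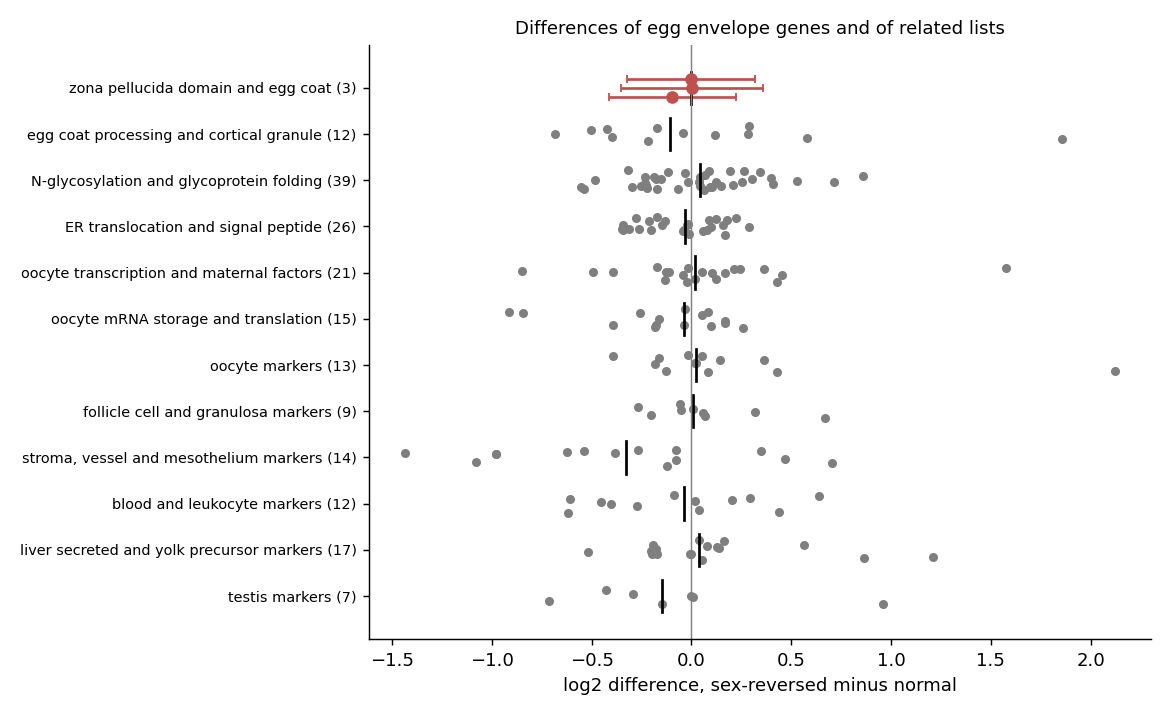
Log2 difference, sex-reversed minus normal, of each probe set (horizontal) by gene list, with the number of probe sets in brackets and a black line at each list's median. The 3 egg envelope genes are drawn at the top with their 95% intervals, which run between −0.41 and 0.36 and include 0, while the other lists, drawn without intervals, reach from −1.44 (col3a1.S) to 2.12 (ccnb2.S).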

How the data were processed

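Total RNA of 8 ovaries was hybridised as biotinylated cRNA to Affymetrix arrays, per the labels' protocols. Each probe set's value, as deposited by the authors, is a log2 expression level from RMA (background correction, quantile normalisation, probe summary) per the submitters' processing notes, with no version. The log base was read as 2 from the range of the values. RMA hides a shift shared by most transcripts. Groups came from the titles, which call the samples biological replicates. How the animals were related is not stated. The p-values reflect only the variation among these arrays, in which differences between animals and technical variation cannot be told apart. Scanner files were not used here.

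Members, gene lists and rules were chosen with earlier results of these data known. Named were all members, the 3 probe sets most like each, and from each list the 2 of smallest p and up to 2 of the brightest. Oocyte markers named for their spread were chosen after their values were seen. Lists were matched by symbol without the homeolog ending, every probe set counting once.

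All 11485 probe sets were fitted with lmFit and eBayes (limma 3.58.1, R 4.3.3), two-sided, without covariates or filter, with Benjamini-Hochberg adjustment over all of them. The code was tested on simulated data. Exact permutation used scipy 1.17.1. Alternatives covered normalisation, prior, blocks, array weights, a filter on low values, regrouping of sex-reversed replicate 4 and leaving out each array. The within-set fits were added after seeing the data.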

Additional observations from a re-analysis of the deposited data

How the results depend on the processing

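Across 18 other settings per gene, 0 of 54 recomputed differences passed an adjusted p of 0.05 in limma (lowest adjusted p 0.807), and values lay between −0.19 and 0.12. The difference of zp2.L stayed below 0 in all 18. In some of these the sign was fixed in advance. The trended robust prior, the blocks by replicate and array set and the filter on low values cannot change the estimate of any of the 3 genes (−0.096 each time for zp2.L). Signs of zp4.S and zpd.L, both near 0, changed: with array weights zp4.S was −0.0013, with quantile normalisation zpd.L was 0.014, with median centring 0.0074, and within array set 1 they were −0.088 and 0.12. The cause was not tested. Leaving out 1 array gave −0.17 to −0.019 for zp2.L, −0.10 to 0.078 for zp4.S and −0.069 to 0.063 for zpd.L. The number of probe sets passing over the array was then 0 to 2, with 1 each without normal replicate 1, 2 or 3 and 2 without sex-reversed replicate 2. Fitted within 2 arrays against 2, it was 30 in set 1 and 5 in set 2, none of them an egg envelope gene. The sets were found from these same values, so these counts are not a fair test. Same-numbered arrays of the groups correlated between −0.19 and 0.24 in their deviations, so the numbers were not taken as pairs. With the replicate number as a block the differences were unchanged by construction (−0.096, 0.0043 and −0.0031), and 0 probe sets passed.

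The rank of the SD moved with the comparison and with single arrays: 17.6%, 29.0% and 14.1% of the 1000 nearest probe sets in level were less variable than zp2.L, zp4.S and zpd.L. Leaving out 1 array moved the rank over all probe sets from 1.12% to 9.46% for zp2.L, 4.22% to 16.2% for zp4.S and 3.31% to 7.39% for zpd.L. Moves of over 1.5 times came without sex-reversed replicate 1 (1.12%), sex-reversed replicate 2 (8.21%), normal replicate 2 (8.53%) or normal replicate 3 (9.46%) for zp2.L, without normal replicate 3 (4.22%) for zp4.S, and without normal replicate 1 (7.12%) or normal replicate 2 (7.39%) for zpd.L. Signal over background was not given, so the limit it sets is unknown.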
